A study of Mus musculus with 9 samples.

Results

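Kinesin, tubulin and neurofilament transcripts were followed in nuclear RNA from mouse hippocampal pyramidal cells that had been classed by their activity in vivo. The set held 10 genes taken by name, 5 kinesin motors (Kif1a, Kif1b, Kif5a, Kif5b and Kif5c), 3 neurofilament subunits (Nefl, Nefm and Nefh) and 2 tubulins (Tuba1a and Tubb3), out of 31052 gene columns in the table. All 10 were found and all 10 were among the 15227 genes tested. Nuclei of WT mice were tagged with light (2P-NucTag) after two-photon imaging in vivo, their mRNA was made into SMART-Seq mRNA LP libraries, and 5 libraries came from place cells, which fire at particular locations, and 4 from silent cells. The labels give 1 factor, place or silent, and WT as the genotype of both groups. The sources used here give neither age, sex and strain background, nor the tagging agent, nor the number of nuclei in a library. Each library title carries its own mouse designation, but the labels do not say that each is a separate animal, so the p-values measure the spread between these libraries, which may be partly technical.

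Axons are supplied from the cell body along microtubules, which are polymers of alpha and beta tubulin. Kinesins are motors that walk along microtubules and carry cargo towards the axon tip. Kif1a and Kif1b belong to the kinesin-3 family and carry precursors of synaptic and dense-core vesicles and, for a splice form of Kif1b, mitochondria. Kif5a, Kif5b and Kif5c are heavy chains of conventional kinesin (kinesin-1), Kif5b in most cell types and the others mainly in neurons. Neurofilaments are intermediate filaments built from light (Nefl), medium (Nefm) and heavy (Nefh) subunits. They are most abundant in large-calibre, myelinated axons, and the long tail of the heavy subunit is strongly phosphorylated there.

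Levels are given as RPM, the whole reads recovered from the deposited values per 1e+06 reads of the library's scaled depth. Depth ran from 13963594 to 22219426 reads and the number of genes with a value above 0 from 14176 to 20990, both lowest in silent replicate 1. Principal components set silent replicate 1, silent replicate 4 and place replicate 3 apart from the rest on the first 3 components, and place replicate 1 on the next. Markers of CA1 pyramidal cells were present in every library (all 8 listed genes, 535 to 1047 RPM in sum in place and 818 to 1129 in silent libraries). Reads of 4 Y-linked genes (Eif2s3y, Ddx3y, Uty and Kdm5d) summed to 734 RPM or more in the 4 silent libraries and place replicate 1, and to at most 0.264 in the other place libraries. Only place replicate 1 separates that split from the groups. With a term for the Y-linked level limma called 221 genes, none of them among the 10.

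The transcript that separated the groups was Nefh. It was present in 5 of 5 place libraries and had no reads in 3 of 4 silent ones, while the other 9 genes had reads in every library and overlapping groups. None of the 10 genes passed the test: limma called 0 of 15227 genes at an adjusted p under 0.05 (0% called, smallest adjusted p 0.426), and 774 genes (5.08%) had an unadjusted p under 0.05. Of those, 570 (3.74% of the genes tested) were higher in place and 204 (1.34%) lower. Among the 10 genes, 2 (Nefh and Nefm) were on the higher side at that level and 0 on the lower. Folds above 0 were found for 7 of the 10 and for 58.6% of all genes tested, with medians of 0.10 and 0.19 on the log2 scale. Voom on the recovered reads called 4 genes (0.0263%), and none of the 10.

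Nefh, the heavy neurofilament subunit, stood at 6.54, 9.18, 26.2, 25.2 and 18.7 RPM in place replicates 1 to 5. In silent replicate 2 it stood at 1.28 RPM, from 25 reads, and in silent replicates 1, 3 and 4 it had 0 reads, which allows levels of up to 0.218, 0.183 and 0.135 RPM (3 reads, counting error only). Every place library was therefore above every silent library. Behind the place values were 97, 163, 497, 550 and 349 reads. The mean level was 17.2 ± 9.03 RPM (SD, n = 5) for place and 0.319 ± 0.638 RPM (SD, n = 4) for silent libraries, a 53.8-fold ratio of means. That ratio rests on the 25 reads of silent replicate 2, without which the silent group holds no Nefh read. On the log2(value + 1) scale, where the value is the deposited signal after scaling (1 Nefh read counts 1.43 before it), the fold was 7.33 ± 1.84 (SE, 95% interval 3.32 to 11.34), with a limma unadjusted p of 0.00179 and an adjusted p of 0.665. Its size depends on the added constant, from 4.80 with 10 to 9.83 with 0.1, and was 8.61 without silent replicate 2 and 6.91 without any other silent library. Over the 21 alternatives run, the sign held and the adjusted p ran from 0.101 to 0.961. The unadjusted p ran from 9.78e-05 with voom to 0.0665 by limma with a term for the Y-linked level. With that term the fold was 6.37 ± 3.12 (SE). Without silent replicates 1 and 4 and place replicate 3, the libraries that stand apart, it was 5.86 (limma unadjusted p = 0.0263).

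Other genes showed the layout of Nefh too. Every place library lay above every silent one in 195 genes (1.28% of those tested), and the reverse held in 92 (0.604%). Reads in all 5 place libraries and none in at least 3 of 4 silent ones, a rule written after Nefh was seen, were found in 190 genes (1.25%). A gene absent from 3 silent libraries could enter the test only with at least 3 place libraries above the filter on low values, so its direction was partly set by that filter. No reads in at least 1 library were found for 6388 genes (42%). Within the libraries with Y-linked reads, Nefh stood at 6.54 RPM in place replicate 1 and at 0 to 1.28 RPM in the silent libraries, a split of 1 against 4 that allows no test of its own.

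Marker transcripts of other cells were set beside Nefh, since inhibitory neurons and CA3 cells can carry neurofilaments. The GABAergic interneuron list (8 of 12 genes with reads in at least 4 libraries) summed to 97.6 to 460.5 RPM in place and 104 to 376 RPM in silent libraries. Place replicate 3, with the highest Nefh level (26.2 RPM), also had the highest interneuron (460.5 RPM), oligodendrocyte (3492 RPM) and astrocyte (2346 RPM) sums of the 9 libraries. Place replicate 4, with 25.2 RPM of Nefh, had the lowest interneuron sum, and silent replicate 3, with 0 Nefh reads, had 376. Pvalb, which marks fast-spiking interneurons, was at 0 in place replicates 1 and 2 and at 3.25 to 13.0 RPM in place replicates 3 to 5, the 3 libraries with the most Nefh. In silent replicates 1 to 4 it was at 0.218, 0, 2.62 and 0 RPM, below those 3. Gad2 and Erbb4, from the same list, were at 0 in place replicates 3 and 4. The CA3 list (7 of 8) summed to 79.3 to 188 RPM in place and 84.1 to 399 RPM in silent libraries. In silent replicate 1, St18 and Slc17a6 gave 250 and 112 of the 399 RPM. Of the 6 CA3 genes tested, 4 had folds above 0 and 2 below, with a median log2 fold of 0.89. For Bok, from that list, every place library lay above every silent one, as in 1.28% of all genes tested, Nefh among them. Bok reached 28.3 RPM in place libraries and stood at 0, 2.09, 0.488 and 0 RPM in silent replicates 1 to 4. Its lowest place value, in place replicate 4, was only just above that of silent replicate 2. In place replicate 4 Nefh stood at 25.2 RPM. Oligodendrocyte markers (10 of 11), from the myelinating cells that ensheathe neurofilament-rich axons, had a median sum of 1535 RPM in place and 296 RPM in silent libraries. All 10 tested had folds above 0, beside 58.6% of all genes tested. Of the 10, 5 were higher in place with a limma unadjusted p under 0.05, beside 3.74% of all genes tested. For 1 of them, Opalin, every place library lay above every silent one, at 0.092 to 78.9 and 0 to 0.073 RPM. Its lowest place value, in place replicate 4, was under the level of 3 reads (0.138 RPM). In place replicates 4 and 5 the oligodendrocyte sum was 315 and 199 RPM, within the silent range of 120 to 598, with Nefh at 25.2 and 18.7 RPM. The part of these cell types in the Nefh difference was not tested in any library. Fewer cells of a type and less RNA per cell cannot be told apart in these libraries.

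Nefm, the medium subunit, stood at 137, 188, 109, 124 and 110.0 RPM in place replicates 1 to 5 and at 22.9, 68.8, 94.8 and 115 RPM in silent replicates 1 to 4. The groups overlapped only where silent replicate 4 exceeded place replicates 3 and 5. Means were 134 ± 32.7 RPM (SD, n = 5) for place and 75.4 ± 39.8 RPM (SD, n = 4) for silent libraries. The log2 fold was 1.02 ± 0.46 (SE, 95% interval 0.03 to 2.02), with a limma adjusted p of 0.863. Silent replicate 1, the library with the fewest genes, held the lowest Nefm value, and without it the fold was 0.53 (limma unadjusted p = 0.127). It was also 0.53 when a term for genes detected was added.

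Nefl, the light subunit on which the filament is assembled, stood at 43.4, 94.0, 136, 166 and 130.1 RPM in place replicates 1 to 5 and at 80.2, 84.2, 111 and 131 RPM in silent replicates 1 to 4. The silent values lay inside the place range. The log2 fold was 0.06 ± 0.41 (SE, 95% interval -0.82 to 0.94, limma adjusted p = 0.990), an interval that leaves room for a change in either direction. Its sign turned when place replicate 3, 4 or 5 or silent replicate 1 or 2 was left out (-0.11 to -0.02).

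The shares of the subunits were also set side by side. Per kilobase of exon, Nefh was 6.74 ± 2.69% (SD, n = 5) of the summed neurofilament level in place libraries, against 0.215 ± 0.43% (SD, n = 4) in silent ones. Nefl made up 53.0 ± 13.4% in place, from 33.6 to 63.9%, and 71.4 ± 9.56% in silent libraries, from 66.1 to 85.7%, so that each silent library was above each place library. With the shorter Nefm transcript as its length, an alternative chosen after seeing the data, Nefl made up 23.1 to 53.0% in place and 52.9 to 77.5% in silent libraries, which overlap, and Nefh 2.65 to 8.27% and 0 to 0.697%, which do not. These shares describe the libraries and were not tested. Nefl and Nefm are neighbouring genes, and in the GENCODE M21 annotation the longer of 2 Nefm transcripts runs over the first exon of Nefl on the opposite strand, with 31.8% of the 50-base windows of the Nefl transcript in common when both strands are read. The sources used here give neither the strand setting nor the annotation of the counting, so part of the reads of these genes may have been split or dropped. No 50-base window of Nefh occurred in a transcript of another gene.

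**Figure D1:**
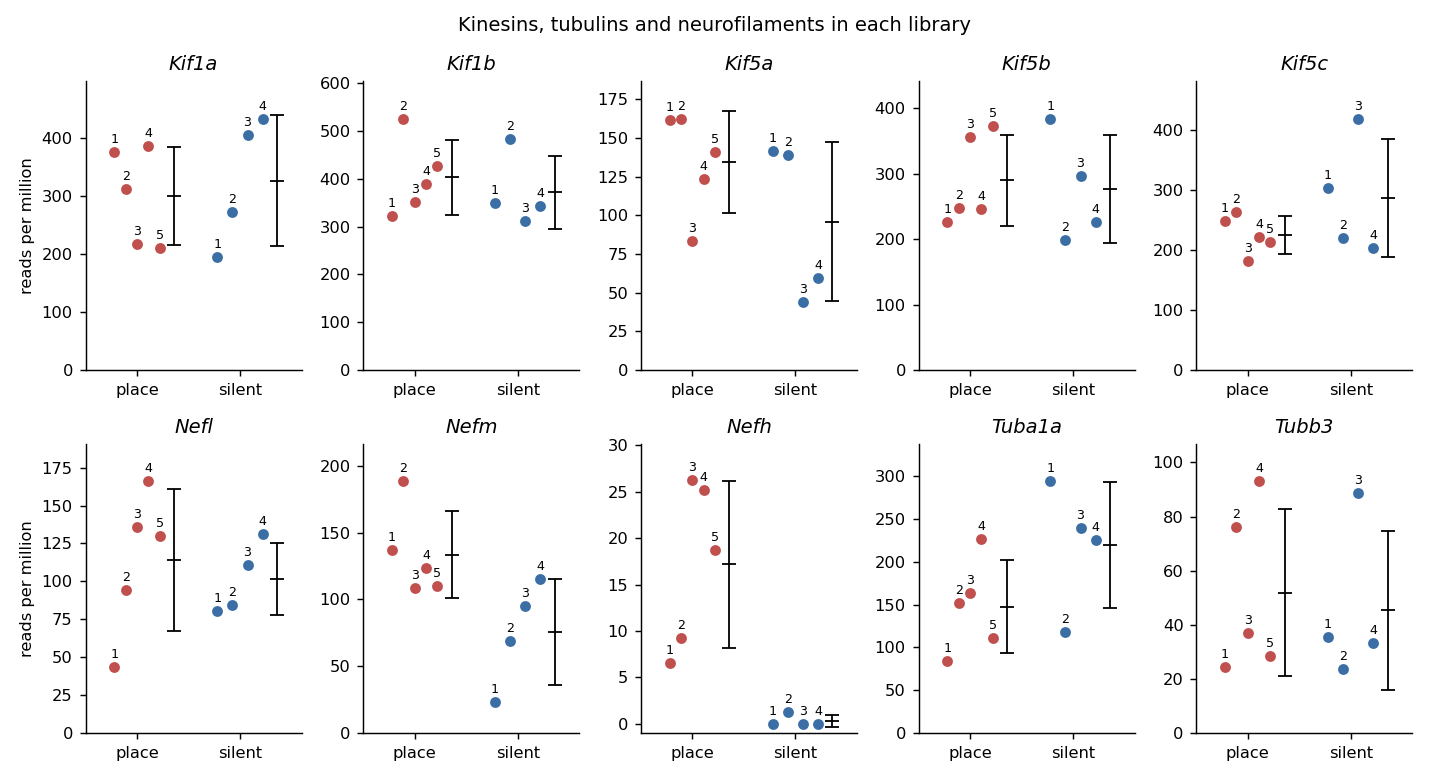
Level of each of the 10 genes in each library, in RPM, for 5 place (red) and 4 silent (blue) libraries. Points are libraries labelled by replicate number, and the bar beside each group is the mean ± SD. Nefh is the only gene of the 10 whose groups do not overlap, with place libraries at 6.54 to 26.2 and silent libraries at 0 to 1.28 RPM.

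The summed level of the 5 kinesin genes ranged only from 1190.0 to 1510.3 RPM over the 9 libraries. It was 1353 ± 114 RPM (SD, n = 5) for place and 1357 ± 90.5 RPM (SD, n = 4) for silent libraries, and none of the 5 genes passed the threshold. Kif1b varied least of the 10 genes, with a coefficient of variation of 19.1% over the 9 libraries. The median over the 2477 genes with a mean of at least 100 RPM was 31.3%, and Kif5b, Kif5c and Kif1a were below it as well, at 24.9%, 28.4% and 29.5%.

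Kif1a, a motor for synaptic vesicle precursors, stood at 376, 313, 217, 387 and 209.7 RPM in place replicates 1 to 5 and at 194, 273, 406 and 433 RPM in silent replicates 1 to 4. The ranges of the groups overlapped almost fully. The log2 fold was -0.10 ± 0.29 (SE, 95% interval -0.73 to 0.54, limma adjusted p = 0.966), and it turned to between 0.01 and 0.06 without place replicate 3, place replicate 5, silent replicate 3 or silent replicate 4. Kif1b, its close relative, stood at 322, 525, 352, 388 and 427 RPM in place and at 349.9, 483, 311 and 343 RPM in silent libraries. Its highest values came from place replicate 2 and silent replicate 2. Its log2 fold was 0.12 ± 0.21 (SE, 95% interval -0.34 to 0.57, limma adjusted p = 0.935).

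Kif5a, the conventional kinesin whose cargo includes neurofilaments, stood at 161, 162, 83.1, 123 and 141 RPM in place replicates 1 to 5 and at 141, 139, 44.1 and 59.5 RPM in silent replicates 1 to 4. Silent replicates 3 and 4 were below every place library, while silent replicates 1 and 2 lay among them. Limma gave a log2 fold of 0.62 ± 0.41 (SE, 95% interval -0.28 to 1.53, limma adjusted p = 0.863), and it was 0.31 without silent replicate 3.

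Kif5b, the conventional kinesin found in most cell types, stood at 226, 248, 356, 247 and 373 RPM in place and at 384, 199, 297 and 226 RPM in silent libraries. The lowest and the highest of the 9 values were both in silent libraries. Its log2 fold was 0.08 ± 0.26 (SE, 95% interval -0.48 to 0.65, limma adjusted p = 0.966), and it turned to -0.02 without place replicate 5 and -0.06 without silent replicate 2. Kif5c, the neuronal form, stood at 248, 263, 182, 222 and 213 RPM in place and at 303, 221, 419 and 204 RPM in silent libraries. Its spread was wider in the silent group, where silent replicate 3 stood at 419. The log2 fold was -0.30 ± 0.25 (SE, 95% interval -0.83 to 0.24, limma adjusted p = 0.863), and -0.10 without silent replicate 3.

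Silent replicate 3 had the most uneven mix of conventional kinesins. Per kilobase of exon, Kif5c made up 57.4% of the summed Kif5 level there and Kif5a 6.18%. Over the place libraries Kif5a, Kif5b and Kif5c took 21.96 ± 4.81%, 41.7 ± 9.37% and 36.3 ± 4.96% (SD, n = 5), and over the silent ones 15.9 ± 8.47%, 39.0 ± 5.22% and 45.1 ± 8.53% (SD, n = 4). The groups overlapped for each of these shares. The longest transcripts of Kif1a, Kif1b, Kif5a and Kif5c shared no 50-base window with another gene, and that of Kif5b shared 4.31%. The longest Kif5 transcripts therefore have no exact stretch of that length in common. How the reads were assigned between the Kif5 genes was not tested.

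**Figure D2:**
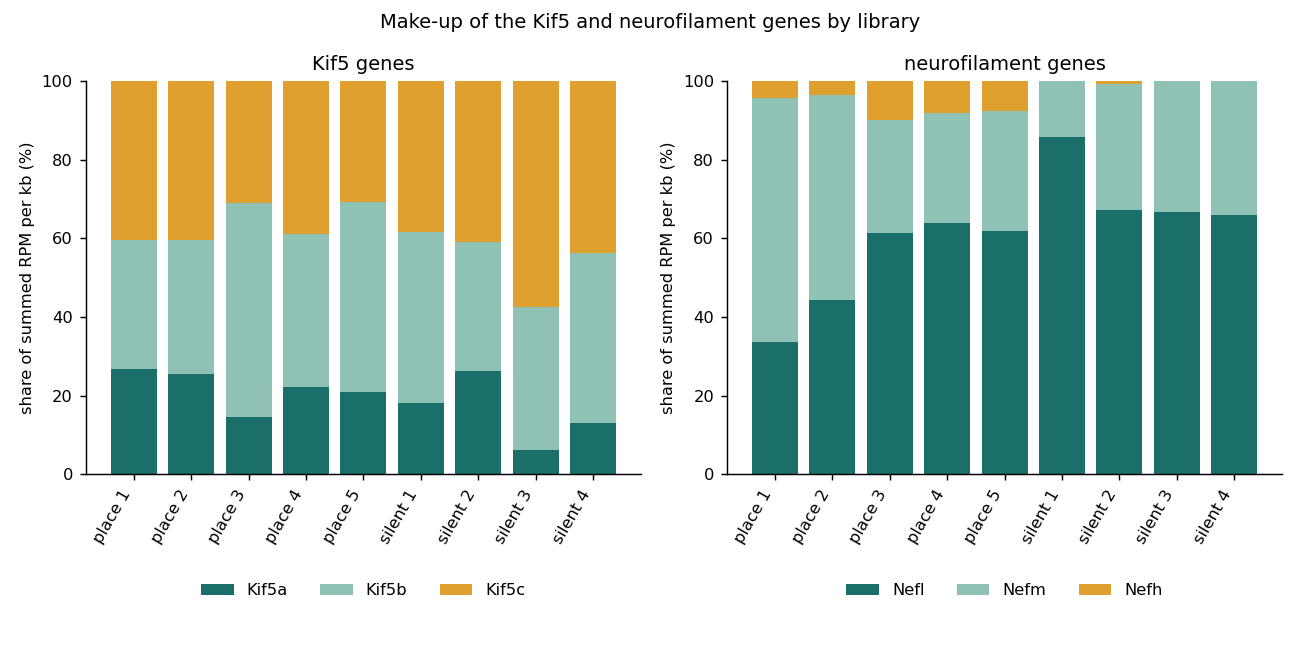
Share of each gene in the summed level per kilobase of exon, in percent, for the Kif5 genes (left) and the neurofilament genes (right), with 1 bar per library. Kif5a falls to 6.18% in silent replicate 3, and Nefh takes 3.67 to 10.0% in place libraries and 0 to 0.861% in silent ones.

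Tuba1a, the main alpha tubulin gene of young neurons, stood at 84.1, 152, 164, 227 and 111 RPM in place replicates 1 to 5 and at 294, 118, 239.7 and 226 RPM in silent replicates 1 to 4. Of the silent libraries, replicate 1 was above every place library and replicate 3 as well, while replicate 2 lay near the lower end of the place range. Means were 148 ± 54.5 RPM (SD, n = 5) and 219 ± 73.5 RPM (SD, n = 4). The log2 fold was -0.58 ± 0.34 (SE, 95% interval -1.32 to 0.16, limma adjusted p = 0.863), and its sign held in the 21 alternatives, from -1.35 to -0.22.

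Reads of Tuba1a are hard to tell from those of its relatives. The coding sequences of Tuba1a and Tuba1b in GENCODE M21 (GRCm38) have 1356 bases each and agree at 1333 positions (98.3%), and 75.5% of the 50-base windows of the Tuba1a transcript also occurred in transcripts of other genes. The sources used here do not say how reads that match several genes were counted, so the level of Tuba1a is uncertain.

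Tubb3, the beta tubulin used as a marker of neurons, was the most variable of the 9 genes with reads in every library (coefficient of variation 58.3%). It stood at 24.4, 76.2, 37.0, 93.0 and 28.3 RPM in place replicates 1 to 5 and at 35.5, 23.5, 88.9 and 33.4 RPM in silent replicates 1 to 4. High values came from place replicates 2 and 4 and silent replicate 3, and the groups overlapped fully. Its log2 fold was 0.18 ± 0.58 (SE, 95% interval -1.09 to 1.44, limma adjusted p = 0.969), and it turned to between -0.09 and -0.02 without place replicate 2, place replicate 4 or silent replicate 2. No 50-base window of its transcript was shared with another gene.

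**Figure D3:**
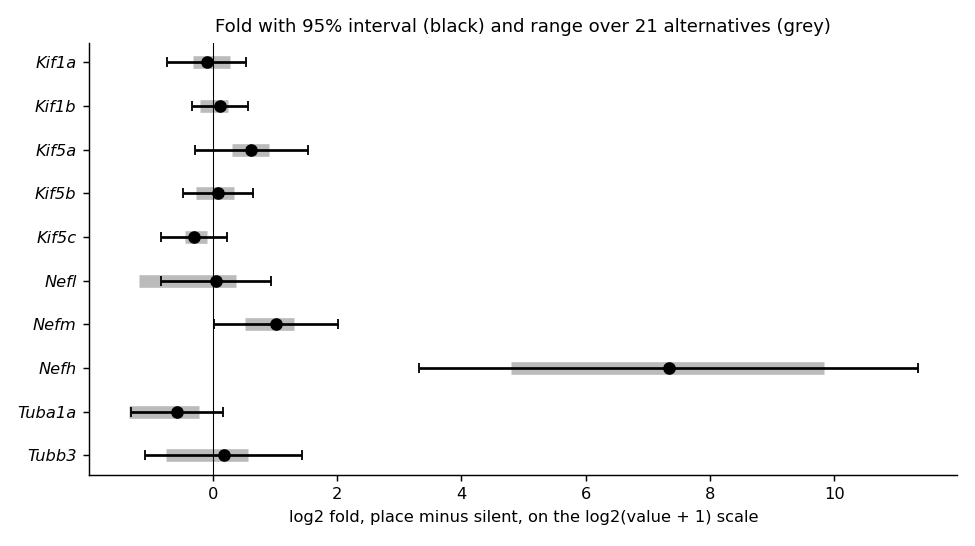
Log2 fold of each of the 10 genes, place minus silent, on the log2(value + 1) scale. Black points are the limma fold with its 95% interval, and grey bars span the values over 21 alternatives. Nefh is at 7.33, and the intervals of the other genes reach 0 or, for Nefm, start at 0.03.

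Levels were compared between genes per kilobase of exon (RPKM). Tuba1a was highest at 99.5 ± 39.0 RPKM (SD, n = 9) and ranked 201 among the 14477 tested genes with an exon length. Kif5b (35.6 ± 8.86), Kif5c (35.4 ± 10.0), Kif1a (33.4 ± 9.87) and Nefl (32.1 ± 10.9) formed a group in which neighbours in this order kept it in only 3 to 6 of 9 libraries. Tubb3 (26.2 ± 15.3), Kif1b (22.1 ± 4.23), Nefm (18.6 ± 7.88) and Kif5a (16.8 ± 6.29) followed, again with neighbours out of order in several libraries. Nefh was lowest at 2.43 ± 2.74 RPKM, below Kif5a in 9 of 9 libraries. The order in the middle depends on the length used. Per kilobase of the longest transcript Kif1b reached 38.0 ± 7.28, beside Kif1a at 38.0 ± 11.2, and with its shorter transcript Nefm reached 32.3 ± 13.7, beside Nefl at 32.1 ± 10.9.

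The wider transport and cytoskeleton machinery was read from 7 lists, and limma called 0 of their tested genes. Of 21 tested kinesins outside the set, 12 had folds above 0 and 9 below, with a median log2 fold of 0.47 beside 0.19 over all genes tested. Kif21a, a kinesin-4 that restrains microtubule growth, was the most abundant of them, at 332 ± 19.1 RPM (SD, n = 5) for place and 477 ± 162 RPM (SD, n = 4) for silent libraries, a log2 fold of -0.47 ± 0.22 (SE, adjusted p = 0.863 by limma). Its place values lay within 309 to 352 RPM, whereas silent replicate 1 reached 707. The mitotic motors Kif15 and Kif22 had the smallest p of the list. Kif15 stood at 5.45 ± 5.06 RPM in place and had reads in silent replicate 2 only, at 6.02. Kif22 averaged 3.66 ± 4.34 RPM in place, with no reads in place replicates 1 and 3, and 17.3 ± 10.4 RPM in silent libraries.

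Kinesin light chains and cargo adaptors, which link motors to their freight, gave 12 folds above and 8 below 0 (20 genes, median 0.12). Klc1, the main light chain of neurons, stood at 318 ± 36.7 RPM (SD, n = 5) for place and 323 ± 77.9 RPM (SD, n = 4) for silent libraries. Trak1, which ties kinesin-1 to mitochondria, stood at 129 ± 19.3 and 89.8 ± 56.4 RPM, and Klc4 at 30.4 ± 11.8 and 13.7 ± 11.6 RPM, with no reads in silent replicate 1. Dynein and dynactin genes, which serve transport back to the cell body, gave 8 folds above and 18 below 0 (26 genes, median -0.13). Hook1, a dynein adaptor and the most abundant of these genes, stood at 374 ± 78.4 RPM in place and 521 ± 89.2 RPM in silent libraries, a log2 fold of -0.49 ± 0.21 (SE, adjusted p = 0.863 by limma). Bicd1, another adaptor, stood at 488 ± 172 and 342 ± 76.7 RPM, with place replicate 1 alone at 788.

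Of the 13 other tubulins tested, 9 had folds above 0 and 4 below (median 0.36). Tubb2a, a beta tubulin abundant in neurons, stood at 127 ± 53.4 RPM (SD, n = 5) for place and 235 ± 95.8 RPM (SD, n = 4) for silent libraries, a log2 fold of -0.89 ± 0.36 (SE, adjusted p = 0.863 by limma), below 0 as for Tuba1a. Tubb6 had reads in 4 of 5 place libraries, up to 12.3 RPM, and none in the silent ones. With each silent library set to 3 reads, its mean was at least 30.6-fold higher in place. That mean rests largely on place replicates 1 and 3, at 10.3 and 12.3 RPM. Place replicate 4 stood at 1.38 RPM and place replicate 5 had 0 reads, so the groups overlapped. Tubb6 passed the filter on low values only through those 4 place libraries, so its direction was set by that filter. Tubg2, a gamma tubulin, is named here because it was the only other tubulin with separate groups. It stood at 21.0 to 41.2 RPM in place and 7.92 to 19.4 RPM in silent libraries (limma adjusted p = 0.863). Over all genes tested, 1.28% had every place library above every silent library.

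Of the 32 microtubule-associated proteins, 21 had folds above 0 and 11 below (median 0.13). Map4, a microtubule stabiliser found in most tissues, was the only one whose groups did not overlap. It stood at 171 to 375 RPM in place and 409 to 575 RPM in silent libraries, a log2 fold of -0.77 ± 0.25 (SE, adjusted p = 0.846 by limma). Over all genes tested, 0.604% had every silent library above every place library. Stmn2, a tubulin-binding protein needed to maintain axons, stood at 130.5 ± 47.8 RPM (SD, n = 5) and 216 ± 75.4 RPM (SD, n = 4). Dclk1, the most abundant gene of the list, stood at 1243 ± 185 and 1334 ± 70.5 RPM. The 24 enzymes that fold, modify or sever tubulin split into 14 folds above and 10 below 0 (median 0.04). Among them Ttl, which adds tyrosine back to alpha tubulin, stood at 38.1 ± 20.0 and 16.1 ± 15.2 RPM, Svbp, the partner of the enzymes that remove it, at 6.56 ± 3.001 and 1.65 ± 2.18 RPM, and Agtpbp1, which trims glutamate chains, at 264 ± 91.4 and 292 ± 50.6 RPM.

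Of the 9 other intermediate filament and neurofilament partner genes tested, 6 had folds above 0 and 3 below (median 0.39). Macf1, a linker of microtubules and actin, was the most abundant at 515 ± 127 RPM (SD, n = 5) for place and 564 ± 123 RPM (SD, n = 4) for silent libraries. Plec, a linker of intermediate filaments, stood at 80.4 ± 45.3 and 36.9 ± 21.6 RPM. Vim, the filament of glia and vessels, stood at 29.4 ± 29.8 RPM in place and 2.19 ± 2.48 RPM in silent libraries. Its highest value, 64.6 RPM, was in place replicate 3, the library with the highest oligodendrocyte (3492 RPM) and astrocyte (2346 RPM) sums. Place replicate 1 followed at 56.5 RPM, with oligodendrocyte and astrocyte sums of 1535 and 262 RPM. Markers of endothelium (3 of 6 genes with reads in at least 4 libraries) summed to 25.4 RPM there, the highest of the 9 libraries. Of that sum 23.3 RPM came from Tek. In place replicate 3 the endothelium sum was 1.85 RPM. The source of the Vim reads was not tested.

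**Figure D4:**
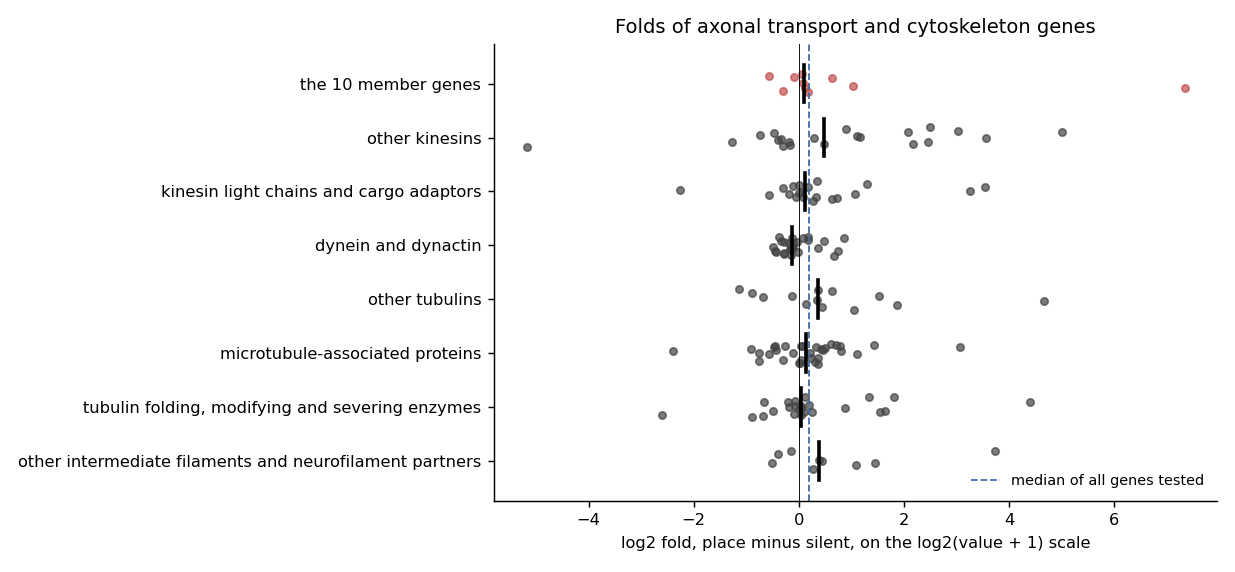
Log2 fold, place minus silent, on the log2(value + 1) scale, for each tested gene of the set (red) and of 7 related lists (grey), with the median of each list as a black bar. The list medians lie between -0.13 and 0.47, around the median of all genes tested at 0.19 (dashed line).

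Whether members of a family moved together over the 9 libraries was asked for 8 pairs on the log2 scale. None held after adjustment (exact permutation of pairings, two-sided, adjusted p from 0.479 to 0.855 for Pearson's r). Tuba1a and Tubb3 had r = 0.56 (exact permutation p = 0.120, adjusted p = 0.479) and Spearman's rho = 0.67 (exact permutation p = 0.0589, adjusted p = 0.471), and r was 0.67 without place replicate 1 and silent replicate 1, the libraries farthest from the median. Nefm and Nefh had r = 0.56 (exact permutation p = 0.0908, adjusted p = 0.479) and rho = 0.41, falling to r = 0.29 without silent replicate 1 and place replicate 2. That r is pooled over groups that differ in Nefh, and among the place libraries replicates 1 and 2 had the highest Nefm and the lowest Nefh levels. Kif5a and Kif5c had r = -0.29, which turned to 0.73 without silent replicates 3 and 4, so the pooled value rests on those libraries. For the other 5 pairs r lay between -0.27 and 0.15. Without the 2 farthest libraries it was 0.57 for Nefl with Nefm, 0.29 for Nefl with Nefh, -0.40 for Kif5a with Kif5b, 0.09 for Kif5b with Kif5c and -0.39 for Kif1a with Kif1b. No r was computed within the groups, which hold 5 and 4 libraries.

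The tested genes whose log2 profile was most like that of the most abundant member of each family in RPM were also listed, by Pearson's r over the 9 libraries among 12058 named genes. For Kif1b, which is behind Kif5b, Kif5c and Kif1a per kilobase of exon, these were Acat1 (0.96), Sowahc (0.96) and Klk12 (0.95), of which Sowahc and Klk12 averaged 0.796 and 0.408 RPM. For Tuba1a they were Otub1 (0.93), Ube2o (0.92) and Jpt2 (0.91), and for Nefl Xpnpep1 (0.96), Ppp2ca (0.95) and Atad3a (0.94). With 9 libraries and this many genes the values are a description only.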

How the data were processed

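The authors deposited 1 table of normalized signal, in which each of 9 libraries is a row and each gene symbol a column. STAR, HTSeq and GRCm39 are named in the submitters' processing notes, and the sources used here give no annotation, strand setting or normalization. Within a gene the deposited signal was a whole multiple of 1 number (within 0.0011 deposited units), so whole reads were recovered for all 18031 genes seen in at least 4 libraries. In 98.7% of them, and in all 10 members, that number matched a factor taken per gene by the TMM method (trimmed mean of M-values). The tolerance was 0.01 on the log2 scale. For genes with reads in 6 libraries, Nefh among them, the trim of that factor was chosen from these values. Their match is therefore no independent check. Libraries were scaled by depth times a TMM factor across libraries (30% and 5% trims). Genes whose scaled value reached 10 in 4 or more libraries entered limma 3.58.1 (R 4.3.3, intensity trend, log2(value + 1), no covariate), with p-values adjusted over 15227 genes (Benjamini-Hochberg, threshold 0.05). The procedure was tested on simulated data. The 21 alternatives changed scaling, pseudocount, filter, test, covariates or libraries. Lengths and transcripts come from GENCODE M21 (GRCm38), so no coordinates are printed. The genes, lists and naming rule (all members, then for each list the 2 genes with the smallest p and the most abundant gene, then the 3 closest profiles per family) were chosen with earlier results of these data known. Correlations used scipy 1.17.1.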

Additional observations from a re-analysis of the deposited data

Results flagged for a closer look

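A library far from the rest of its group was looked for in 58 groups, those of the 10 members and the 19 other named pathway genes. By a gap test that chance passes in about 1 of 20 groups, 4 stood out. For Nefh and Kif15 the other 3 libraries are tied at 0, so any single value above 0 would stand out and that rate does not apply. Nefh stood at 1.28 RPM in silent replicate 2 and at 0 in the other silent libraries. Kif15 stood at 6.02 RPM in silent replicate 2, also against 0 elsewhere in that group. Agtpbp1 was lowest in silent replicate 1, at 217 RPM, where the next silent library was at 311. Bicd1 was highest in place replicate 1, at 788 RPM, where the next place library was at 460.0.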

How the results depend on the processing

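Over 21 alternatives the number of members past the threshold was 0 in each. Over all genes it was 0 except for 4 with voom, 221 with a term for the Y-linked level, and a range of 0 to 1 as each library was left out (1 without place replicate 1). Folds of Kif5a, Kif5c, Nefm, Nefh and Tuba1a kept their sign throughout. In all, 33 recomputed folds and correlations of members and named genes turned sign. The fit with the Y-linked term rests largely on place replicate 1, the only place library with a Y-linked level like that of the silent ones. In that fit the fold was 0.28 for Kif1a, -0.20 for Kif1b, -0.27 for Kif5b, -1.19 for Nefl, -0.75 for Tubb3 and 0.24 for Macf1. With a term for genes detected it was -0.16 for Kif1b, -0.22 for Nefl, -0.45 for Tubb3 and 0.20 for Macf1. As single libraries were left out, it ranged from -0.32 to 0.064 for Kif1a, from -0.058 to 0.26 for Kif5b, from -0.11 to 0.37 for Nefl, from -0.087 to 0.56 for Tubb3 and from -0.091 to 0.15 for Klc1. Klc1, at 0.00 in the report, gave 0.012 with plain totals, 0.042 as deposited, 0.069 with quantile normalization, 0.086 with array weights and 0.12 without the 3 libraries that stand apart. The r of Kif5a with Kif5c was 0.73 without the 2 farthest libraries. The cause was not tested. The planned quasi-likelihood test for counts was not run. Depth limits Nefh, whose 0 reads in 3 silent libraries allow up to 0.218 RPM. No paired analysis was possible because the labels give the groups no shared replicate numbers.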
